A study of Homo sapiens with 6 samples.

Results

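The genes described here encode the proteins of the cytosolic ribosome, the particle that translates nuclear-encoded mRNAs. They were chosen by symbol among the protein-coding genes of the deposited count table, as RPL or RPS followed by a digit, RPLP0 to RPLP2, and RPSA, leaving out the S6 kinases, RPS4Y1 and RPS19BP1. This gave 88 of the 29845 genes, under 87 symbols, since 2 genes are both named RPL41. Of the 88 genes, 47 are named for proteins of the large subunit and 31 for proteins of the small subunit. Another 7 are paralogues that resemble another member, and 3 are readthrough genes whose annotation joins a ribosomal protein gene to its neighbour. The classes follow the symbols, and no coding length was found for the RPL41 gene on chromosome 7. Cultures of A549, a long-established human lung carcinoma line of epithelial origin, were transiently transfected with a pIRES-hrGFP-1a plasmid carrying TFAM cDNA with a C-terminal FLAG tag (TFAM-OE, 3 biological replicates) or with the same vector without insert (control, 3 biological replicates), so both groups carry the vector and went through transfection. TFAM is a protein that packages and transcribes mitochondrial DNA. Polyadenylated RNA of each culture was sequenced, and the comparison asks which mRNAs differ between the groups.

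Each ribosome is built of a large subunit, which joins amino acids, and a small subunit, which reads the mRNA, and most of its proteins are present in equal number. Ribosomal protein mRNAs are among the most abundant in a growing cell. Most of them start with a C followed by a run of pyrimidines, the terminal oligopyrimidine (TOP) tract, through which mTOR signalling and the RNA-binding protein LARP1 control their translation. A change in that control alters how these mRNAs are translated and need not alter their amount, which is what was measured here. The RefSeq table of start sites (GRCh38.p14) held an entry for 69 of the 87 symbols. The windows below run from 10 bases before the annotated start to 20 bases from it, with the pyrimidine run in capitals where a C followed by at least 4 more C or T bases lay within 3 bases of the start. Where a gene had several annotated starts, one with such a run is shown. They were chosen to show the shared start in the stalk proteins, RPSA, RPL11, RPL13A, RPS3 and RPS6, and to set paralogues beside their partners.
RPLP0 (chr12:120201092-120201121, minus strand): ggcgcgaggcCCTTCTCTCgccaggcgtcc
RPLP1 (chr15:69452808-69452837, plus strand): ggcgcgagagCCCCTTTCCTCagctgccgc
RPLP2 (chr11:809957-809986, plus strand): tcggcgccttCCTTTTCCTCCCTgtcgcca
RPSA (chr3:39406710-39406739, plus strand): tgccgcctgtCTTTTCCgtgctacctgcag
RPL11 (chr1:23691796-23691825, plus strand): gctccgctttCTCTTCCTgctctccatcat
RPL13A (chr19:49487598-49487627, plus strand): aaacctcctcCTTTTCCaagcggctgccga
RPS3 (chr11:75399508-75399537, plus strand): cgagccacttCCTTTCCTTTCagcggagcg
RPS6 (chr9:19380217-19380246, minus strand): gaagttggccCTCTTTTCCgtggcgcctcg
RPL22 (chr1:6199576-6199605, minus strand): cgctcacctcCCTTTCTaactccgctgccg
RPL22L1 (chr3:170870176-170870205, minus strand): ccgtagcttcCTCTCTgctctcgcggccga
RPL26 (chr17:8383174-8383203, minus strand): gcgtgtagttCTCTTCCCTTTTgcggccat
RPL26L1 (chr5:172958870-172958899, plus strand): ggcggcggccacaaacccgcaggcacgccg
RPL36A (chrX:101391001-101391030, plus strand): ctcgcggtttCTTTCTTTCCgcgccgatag
RPL36AL (chr14:49620607-49620636, minus strand): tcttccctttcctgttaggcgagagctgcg
RPS27 (chr1:153990752-153990781, plus strand): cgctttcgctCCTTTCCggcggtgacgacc
RPS27L (chr15:63157458-63157487, minus strand): gatgccgagcgcagatcgcttgcagcttgc

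Such a start, searched on the strand of the gene, was present for 52 of the 62 large- and small-subunit genes with an entry (83.9%), against 16.02% of the 27305 genes in the table. Of the paralogues, 1 of 5 had it, RPL22L1, whereas the windows of RPL26L1, RPL36AL and RPS27L did not meet the criterion. The window of RPL36AL does hold a run of C and T bases across the annotated start. It missed the criterion because no C within 3 bases of the start had enough C or T bases after it. The mitochondrial ribosomal protein genes, whose products form the separate ribosome of the mitochondrion, had it in 9 of 68 (13.2%). Other letters were searched on both strands of the 300 bases from 250 before to 50 after the start. CCGGAAG, a core bound by ETS factors, was found for 22 of the 62 genes (35.5%), against 12.2% of all genes and 29 of 68 mitochondrial ribosomal protein genes (42.6%). AAGATGG, a core bound by YY1, was found for 8 of the 62 (12.9%), against 7.11% of all genes and 24 of 68 mitochondrial ribosomal protein genes (35.3%). These are matches of letters in annotated windows, and no start was measured in A549 cells.

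The libraries held between 26650854 and 37321956 counted reads. Reads on TFAM itself numbered 2555, 1878 and 2663 in the control and 2291, 2808 and 2492 in the other group, or means of 73.0 ± 2.97 and 77.4 ± 5.58 CPM (SD, n = 3), where CPM is the count as a share of the library's TMM-scaled total. The ranges overlapped and TFAM mRNA did not pass the test (log2 fold change 0.08 ± 0.10, SE, edgeR adjusted p = 0.623), so TFAM-OE below names the libraries by their label. The paper checked the overexpression at the protein level, by a western blot for the FLAG tag, which these counts do not measure. Epithelial markers of A549 cells summed to between 11217 and 13841 CPM in all libraries. Fibroblast markers summed to at most 5.604 CPM, blood cell markers to at most 0.157 CPM and endothelial markers to at most 0.506 CPM.

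Of the 88 ribosomal protein genes, 85 had enough reads to be tested, and 0 were lower and 0 were higher in the libraries labelled TFAM-OE at an adjusted p below 0.05 (edgeR quasi-likelihood test, Benjamini-Hochberg over 16555 genes). Over all genes tested, 4.81% were lower and 3.48% higher by the same rule. With a fold of at least 2 added, which 2.51% of all genes passed in either direction, the members counted 0 as well. By unadjusted p below 0.05 there was 1 member, RPL39L, against 4208 of all genes tested. DESeq2, edgeR's exact test and limma-voom called 0 members, and so did edgeR on all genes with a read, where 8.44% of genes passed in either direction. The 3 members not tested were RPL3L, with 0 to 5 reads per library, RPL17-C18orf32, with 4 to 10, and the RPL41 gene annotated on chromosome 7, with 1 to 5.

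The log2 fold changes of the 85 tested members had a median of 0.02 and ran from -0.21 to 0.37, and 35 lay below 0 and 50 above. Over all genes tested the median was -0.01. The interquartile range was 0.112 for the members and 0.428 for all genes, and the 5th to 95th percentiles were -0.10 to 0.13 and -0.79 to 0.55. Of the members, 77 had a mean of at least 5000 reads, and they are not independent of each other, as their levels moved together between libraries. The sign of the members' median was not stable, since it was -0.08 without TFAM-OE replicate 1, 0.16 without TFAM-OE replicate 3 and -0.01 when scaled by library size alone.

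A missing call does not show equality, so the intervals of the differences are given. The 95% interval lay inside a fold of 0.5 to 2 for 85 of the 85 tested members, against 79.5% of all genes tested. It lay within 0.5 of 0 on the log2 scale for 83 members, against 38.0% of all genes. The lowest bound of any member was a fold of 0.707 and the highest a fold of 1.59. Standard errors ran from 0.0887 to 0.196 on the log2 scale, with a median of 0.140. Large-subunit genes had a median log2 fold change of 0.03 (range -0.18 to 0.14, 46 tested) and small-subunit genes 0.01 (range -0.14 to 0.19, 31 tested). In bulk RNA, less RNA per cell and fewer cells with that RNA cannot be told apart.

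**Figure D1:**
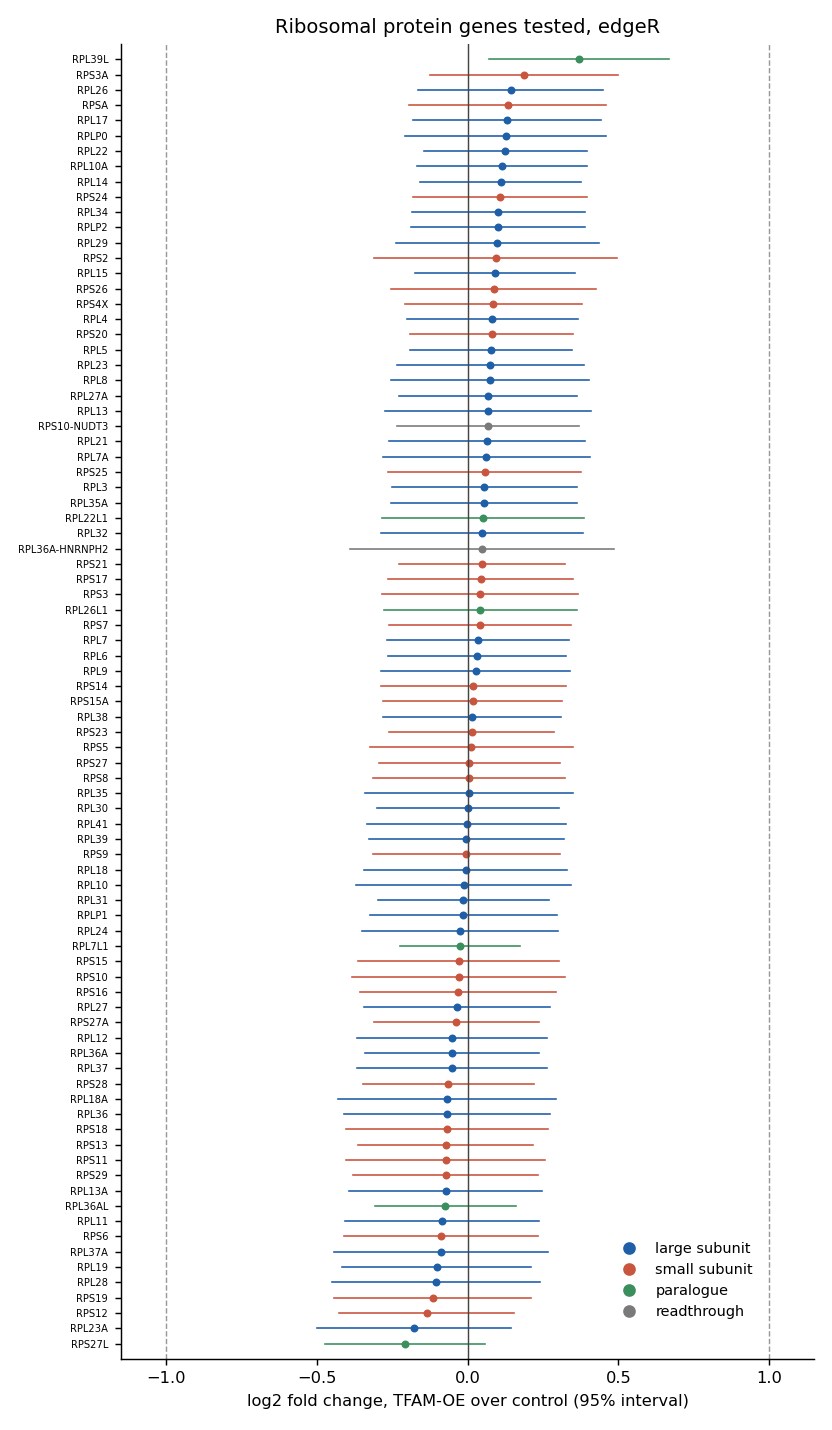
Log2 fold change of the 85 tested ribosomal protein genes (horizontal axis, TFAM-OE over control, edgeR) sorted by value, as points with their 95% intervals and coloured by class; dashed lines mark a fold of 0.5 and 2. Every interval but that of RPL39L, at the top, crosses 0, and all lie between the dashed lines.

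The stalk of the large subunit, which recruits elongation factors, is formed by RPLP0, RPLP1 and RPLP2. RPLP0 (chr12:120196699-120201235, GRCh38) had 2812, 3267 and 3549.8 CPM in the control and 4033, 3666 and 2811 CPM in TFAM-OE. The groups overlapped, with TFAM-OE replicate 1 highest and TFAM-OE replicate 3 lowest, and the log2 fold change was 0.13 ± 0.15 (SE), with a 95% interval of -0.21 to 0.46. RPLP1 (chr15:69452814-69456205) had 2389, 2743 and 2791 CPM in the control and 2948, 2792 and 2106 CPM in TFAM-OE and a log2 fold change of -0.01 ± 0.14 (SE). RPLP2 (chr11:809965-812880) had 775, 875 and 949 CPM in the control and 1026, 986 and 774 CPM in TFAM-OE and a log2 fold change of 0.10 ± 0.13 (SE). All 3 followed the same order within the TFAM-OE group, with replicate 1 above 2 and 2 above 3.

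RPL5 and RPL11 join the large subunit together with 5S rRNA and, when free, bind the p53 regulator MDM2. RPL5 (chr1:92832013-92841924) had 633, 595 and 687 CPM in the control and 751, 699 and 569 CPM in TFAM-OE, with a log2 fold change of 0.08 ± 0.12 (SE). RPL11 (chr1:23691742-23696835) had 827, 819.8 and 926 CPM in the control and 955, 839 and 632 CPM in TFAM-OE, with a log2 fold change of -0.08 ± 0.14 (SE). Their 95% intervals, -0.19 to 0.35 for RPL5 and -0.41 to 0.24 for RPL11, overlapped and both included 0. RPL10, which joins the large subunit late in its assembly, had 2208, 2582 and 2696 CPM in the control and 2902, 2636 and 1878 CPM in TFAM-OE, and its log2 fold change was -0.01 ± 0.16 (SE). RPL13A, which also belongs to the GAIT complex that silences translation of inflammatory mRNAs after interferon gamma, had 3139, 3565 and 3875 CPM in the control and 3843, 3481 and 2732 CPM in TFAM-OE. Its groups overlapped, and the log2 fold change was -0.07 ± 0.14 (SE), with a 95% interval of -0.39 to 0.25 and an edgeR adjusted p of 0.791. RPL3, which shapes the peptidyl transferase centre, had 1570.2, 1736 and 1952 CPM in the control and 2070.1, 1889 and 1506 CPM in TFAM-OE and a log2 fold change of 0.06 ± 0.14 (SE).

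In the small subunit, RPS6 is the protein phosphorylated by the S6 kinases downstream of mTOR. RPS6 (chr9:19375715-19380236) had 1729, 1622 and 1964 CPM in the control and 1919, 1749 and 1329 CPM in TFAM-OE, with a log2 fold change of -0.09 ± 0.14 (SE) and a 95% interval of -0.41 to 0.23. RPS3, at the mRNA entry site, had 1406, 1687 and 1806 CPM in the control and 1895, 1788 and 1359 CPM in TFAM-OE and a log2 fold change of 0.04 ± 0.15 (SE). RPSA, also known as the laminin receptor precursor, had 2084, 2423 and 2651 CPM in the control and 2985, 2751 and 2110.5 CPM in TFAM-OE and a log2 fold change of 0.13 ± 0.15 (SE). For each of these genes TFAM-OE replicate 3 was at or near the bottom and TFAM-OE replicate 1 or control replicate 3 at the top, so the groups overlapped. RPS4X, the X-linked form of the S4 protein, had 1273, 1283 and 1519.8 CPM in the control and 1638, 1474 and 1211 CPM in TFAM-OE and a log2 fold change of 0.09 ± 0.13 (SE).

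Levels of different genes were compared only as FPKM (fragments per kilobase of transcript, scaled to the mapped fragments of the library), as the authors calculated it. The highest mean FPKM over the 6 libraries were those of RPS2 (3165), RPS16 (2553) and RPL13A (2459). RPS2 had 2572, 3267 and 3443 FPKM in the control and 3613, 3501 and 2593 FPKM in TFAM-OE, and RPS16 had 2286, 2785 and 2745 FPKM in the control and 2708, 2627 and 2166 FPKM in TFAM-OE. These ranges overlapped between libraries, but within each library RPS2 was above RPS16. RPL13A was above RPS16 in control replicate 1 (2338 against 2286 FPKM) and below it in the other libraries. RPS2, in the mRNA entry channel, and RPS16, near the decoding centre, had log2 fold changes of 0.09 ± 0.18 (SE) and -0.03 ± 0.15 (SE) in counts. Tested large-subunit genes had a median of 529.8 FPKM and small-subunit genes 711. The lowest tested members were RPS10 (4.56), RPL36A-HNRNPH2 (11.8) and RPL26 (16.8).

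The rows of RPS10 and RPL26 overlap a neighbour on the same strand that held many more reads. RPS10 (chr6:34417454-34426069) had 140 to 219 reads per library, while RPS10-NUDT3, a readthrough gene that contains it, had 17924 to 27899. RPS10-NUDT3 had a log2 fold change of 0.07 ± 0.14 (SE) and RPS10 -0.03 ± 0.16 (SE). RPL26 (chr17:8377516-8383213) had 723 to 1250 reads, while the overlapping gene RP11-849F2.7, which the symbol rule does not take, had 21152 to 36565 and a log2 fold change of -0.03 ± 0.14 (SE). RPL17, chosen after its values were seen, had 753 to 1199 reads, and C18orf32, which overlaps the readthrough gene RPL17-C18orf32, had 13757 to 22040. In all, 40 members share strand and position with another deposited gene, and for 15 of them that gene was other than a snoRNA or miRNA. No source used here says how the authors assigned reads of overlapping genes, and the amounts of these 3 mRNAs are uncertain.

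FPKM also rested on the gene lengths used. A length was inferred from the deposited count and FPKM, taking the summed counts of each library as its total. It was 1.61 times that of the canonical GENCODE transcript in the median of 83 members with at least 500 reads. Over 8110 genes it was 1.25 times. If the authors scaled to another total, all these lengths shift by a common factor, so they are estimates. It was more than 3 times the transcript for 11 of those members, against 2.40% of genes. RPS29, chosen after its values were seen, had the widest gap, 8851 nt against 295 nt, and a mean of 32.6 FPKM from 9467 reads. A longer length gives a lower FPKM, so the levels of single members beside other genes depend on it. The comparison of groups within 1 gene does not use the length.

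Paralogues of ribosomal proteins are encoded by genes of their own. Those tested had a lower mean FPKM than their partners, except RPL26L1 (53.8) beside the RPL26 row (16.8) discussed above. RPL39L, a paralogue of RPL39 known for its high level in testis, had 26.0, 25.9 and 31.0 CPM in the control and 39.8, 37.0 and 30.1 CPM in TFAM-OE. TFAM-OE replicate 3 lay below control replicate 3, so the groups overlapped, and the log2 fold change was 0.37 ± 0.13 (SE), the highest of all members, with a 95% interval of 0.07 to 0.67. It did not pass the test (unadjusted p = 0.0206, adjusted p = 0.119, edgeR). With offsets for transcript length and GC content it passed (0.44, adjusted p = 0.0119, edgeR), in a fit where 11.4% of all genes were called higher. Without TFAM-OE replicate 3 it also passed (0.48, adjusted p = 0.0152, edgeR), where 8.43% of genes were called higher. RPL39 itself, a short protein of the exit tunnel, had 688, 728 and 849 CPM in the control and 889, 763 and 607 CPM in TFAM-OE and a log2 fold change of -0.0046 ± 0.14 (SE). Mean FPKM was 25.2 for RPL39L and 1587 for RPL39.

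RPS27L, a target of p53 and paralogue of RPS27, had the lowest log2 fold change of all members, -0.21 ± 0.12 (SE), with a 95% interval of -0.47 to 0.06 and an edgeR adjusted p of 0.305. Its values were 249.7, 227 and 249 CPM in the control and 239, 213 and 177 CPM in TFAM-OE, and TFAM-OE replicate 1 lay within the range of the control. RPS27 had 832, 828 and 899 CPM in the control and 1022, 844 and 703 CPM in TFAM-OE and a log2 fold change of 0.01 ± 0.13 (SE). RPL22L1 and RPL22, a pair of RNA-binding paralogues, had log2 fold changes of 0.05 ± 0.15 (SE) and 0.12 ± 0.12 (SE), at mean FPKM of 51.7 and 117. RPL26L1 had 0.04 ± 0.14 (SE) and RPL26 0.14 ± 0.14 (SE). RPL36AL had -0.07 ± 0.10 (SE) and RPL36A -0.05 ± 0.13 (SE), at mean FPKM of 157 and 343. RPL7L1, a nucleolar relative of RPL7, had -0.03 ± 0.09 (SE) and RPL7 0.03 ± 0.14 (SE). RPL36A-HNRNPH2, a readthrough gene, had 10.5, 9.0 and 8.73 CPM in the control and 7.78, 8.50 and 12.96 CPM in TFAM-OE and a log2 fold change of 0.05 ± 0.20 (SE), and was highest in TFAM-OE replicate 3. RPL3L, the form of RPL3 found in striated muscle, was at or near 0 reads in these cells.

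Libraries of 1 group differed more in their ribosomal protein content than the groups did, and most members shared these differences. Members held 8.76%, 9.46% and 10.1% of all counts in control replicates 1, 2 and 3 and 10.3%, 9.78% and 8.01% in TFAM-OE replicates 1, 2 and 3. The means were 9.45% ± 0.680 and 9.36% ± 1.20 (SD, n = 3), and the ranges overlapped, with TFAM-OE replicate 1 highest and TFAM-OE replicate 3 lowest. TFAM-OE replicate 1 had the highest CPM of the 6 libraries for 64 of the 85 tested members, and TFAM-OE replicate 3 the lowest for 77. The ratio of large- to small-subunit counts was 1.45, 1.43 and 1.45 in the control and 1.44, 1.44 and 1.45 in TFAM-OE, so both subunits moved together between libraries. Pseudogene rows whose symbol names a ribosomal protein held 0.020% to 0.0279% of all counts. Pseudogenes under other names are not in this share, nor are reads that mapped to several places.

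**Figure D2:**
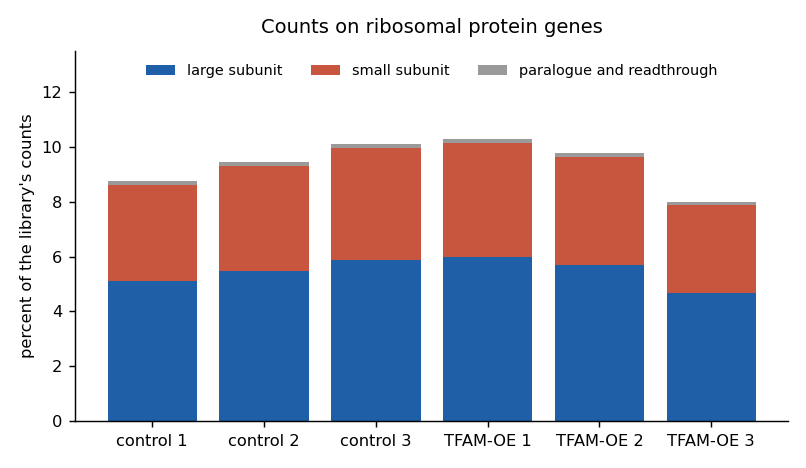
Percent of each library's counts on ribosomal protein genes (vertical axis), as stacked bars for large-subunit, small-subunit and other members in 3 control and 3 TFAM-OE libraries. The total runs from 8.01% in TFAM-OE 3 to 10.3% in TFAM-OE 1, and both subunits rise and fall in the same proportion.

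For each member, the log2 CPM in a library was set against the mean of that gene over the 6 libraries. The median deviation of the members was -0.13, -0.02 and 0.14 in the control and 0.21, 0.08 and -0.28 in TFAM-OE. The within-group SD of a member was 0.201 on the log2 scale in the median, and 0.0502 after the library's median over the members was subtracted. Most of the spread of a member was therefore common to the members. It was wider among the libraries labelled TFAM-OE (median SD 0.253) than among the control (0.147), as it was for all genes (0.172 and 0.131).

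**Figure D3:**
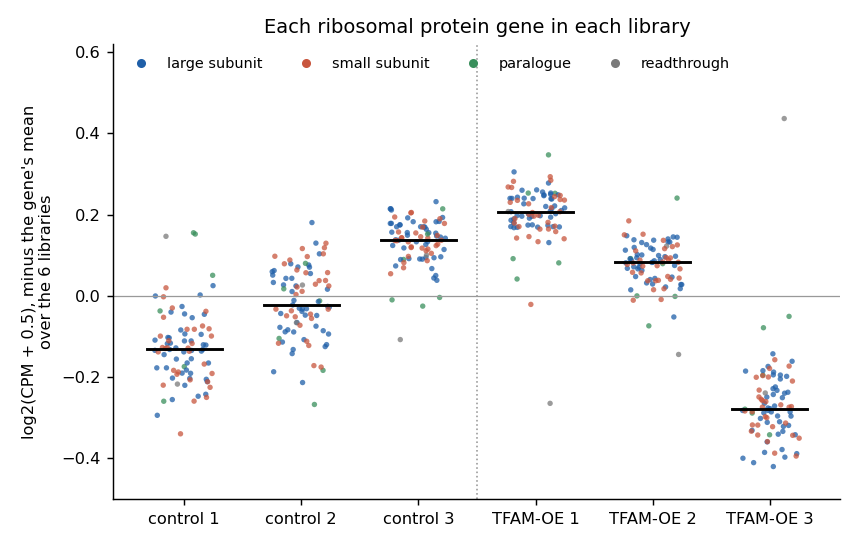
Deviation of each tested ribosomal protein gene from its own mean over 6 libraries (vertical axis, log2 of CPM + 0.5), with 1 point per gene and library, coloured by class, and black bars at the medians. The points of a library lie close together, at medians of 0.21 in TFAM-OE 1 and -0.28 in TFAM-OE 3, and these 2 libraries lie above and below all 3 control medians.

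Ribosomal protein transcripts are short, with a median of 827 nt against 2866.5 nt over all genes tested. Other transcripts of up to 1500 nt had medians of the same sign in each library. They were smaller in size than the members' 0.14 in control replicate 3 and -0.28 in TFAM-OE replicate 3. In genes up to 500 nt the lowest library was control replicate 1 (-0.12), with -0.09 in TFAM-OE replicate 3. Genes of 501 to 750 nt that are no members had median deviations of -0.11, -0.02 and 0.04 in the control and 0.18, 0.08 and -0.14 in TFAM-OE. Mitochondrial ribosomal protein genes had -0.12, -0.05 and 0.11 in the control and 0.20, 0.08 and -0.21 in TFAM-OE. Genes over 4000 nt went the other way, with 0.08, 0.05 and -0.01 in the control and -0.21, -0.03 and 0.14 in TFAM-OE. The part of transcript length in the levels of the members was not tested. Across the 85 tested members, the log2 fold change had a Spearman correlation of 0.259 with coding length, -0.130 with GC content and -0.087 with mean count, as a description over genes that share the same 6 libraries.

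**Figure D4:**
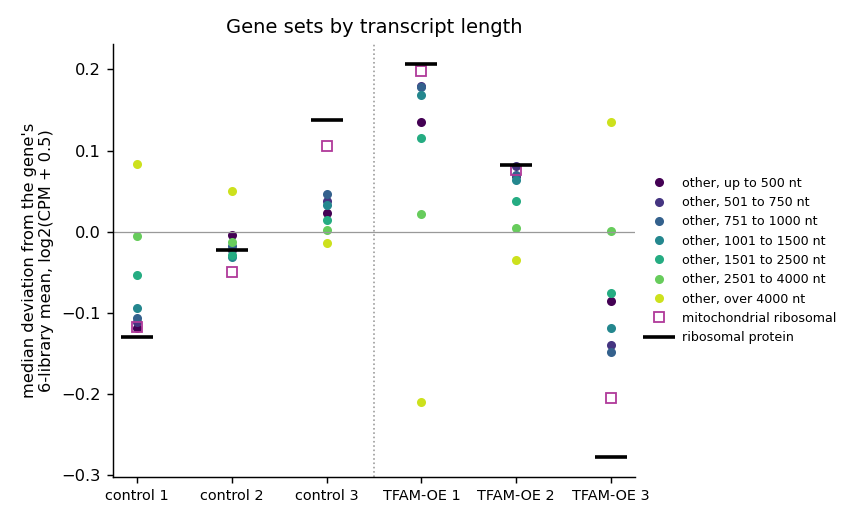
Median deviation from each gene's mean over 6 libraries (vertical axis, log2 of CPM + 0.5) for ribosomal protein genes (black bars), mitochondrial ribosomal protein genes (open squares) and other genes by transcript length (coloured circles) in each library. Short transcripts and both ribosomal sets are highest in TFAM-OE 1 and low in TFAM-OE 3, and transcripts over 4000 nt are lowest in TFAM-OE 1.

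With TMM-scaled CPM, 0 of the 85 tested members had groups that did not overlap, in either direction, whereas 15.8% of all genes tested were separated toward lower and 15.8% toward higher. As a percent of the summed counts of the ribosomal protein genes, a measure added after the data were seen, the groups did not overlap for 11 members (12.9%) toward lower and 8 (9.41%) toward higher. Scaled in the same way, 9.18% of all genes did so toward lower and 13.9% toward higher. The members make up the pool, so a larger share of some entails a smaller share of others, and the names below are a description only. The 11 were RPL12, RPL13A, RPL19, RPL23A, RPL27, RPL37A, RPS12, RPS13, RPS18, RPS19 and RPS27L. The 8 were RPL3, RPL10A, RPL26, RPL39L, RPLP0, RPLP2, RPS3A and RPSA. RPL13A held 3.71%, 3.78% and 3.76% of the pool in the control and 3.54%, 3.50% and 3.56% in TFAM-OE. RPSA held 2.46%, 2.57% and 2.57% in the control and 2.75%, 2.77% and 2.75% in TFAM-OE.

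When the summed member counts served as the library size in edgeR, 0 of 85 members passed an adjusted p of 0.05, and 1.52% of all genes did in either direction. At an unadjusted p below 0.05 there were 3 members, named after their values were seen. How many of all genes did so in this fit was not counted, so the 3 are given as a description only. RPL23A, at the exit of the large subunit's tunnel, had a log2 fold change of -0.20 (edgeR adjusted p = 0.219) and held 1.82%, 1.67% and 1.70% of the pool in the control and 1.57%, 1.47% and 1.48% in TFAM-OE. RPS3A, of the small subunit, had 0.18 (edgeR adjusted p = 0.311) and held 1.12%, 1.04% and 1.16% in the control and 1.24%, 1.23% and 1.27% in TFAM-OE. RPL39L had 0.36 (edgeR adjusted p = 0.264). Within the pool the groups of all 3 did not overlap, as for 9.18% of all genes toward lower and 13.9% toward higher.

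Other genes of the ribosome and of translation were counted in the same test, which called 4.81% of all genes lower and 3.48% higher. Without TFAM-OE replicate 3 it called 10.5% of all genes lower and 8.43% higher. Calls over all genes were fewer in 3 other leave-outs, from 796 lower and 576 higher with all 6 libraries. There were 252 lower and 90 higher without control replicate 1, and 240 and 66 without control replicate 2. Without TFAM-OE replicate 2 there were 262 lower and 89 higher, so calls lost in these fits were lost among all genes too. FAU and RACK1 (GNB2L1 in the table), small-subunit proteins whose symbols the rule does not take, had log2 fold changes of 0.04 ± 0.14 (SE) and 0.06 ± 0.13 (SE) and did not pass the test (edgeR adjusted p = 0.890 and 0.821). The list of 11 elongation factors and associated genes includes TPT1 and EEF1E1, and several of the 11 are also TOP mRNAs. It had 0 calls and a median log2 fold change of 0.08, but 2 were higher without TFAM-OE replicate 3. The 78 mitochondrial ribosomal protein genes had 0 calls and a median of 0.05, but 11 (14.1%) were higher without TFAM-OE replicate 3 and 9 (11.5%) with offsets for length and GC content, where 11.4% of all genes were higher. At an unadjusted p below 0.05, edgeR counted 1 gene of the elongation factor list and 7 mitochondrial ribosomal protein genes. Over all 16555 genes tested, 4208 were below it. DESeq2 called 0 of either list after adjustment. Of 44 tested initiation factors, 1 fell and 0 rose, with a median of -0.02, and the 1 is 2.27% of the list. There were 2 lower and 2 higher without TFAM-OE replicate 3, 2 lower without TFAM-OE replicate 1 and 5 higher with the offsets. Without TFAM-OE replicate 1, 1001 of 16962 genes were called lower. The gene that fell was EIF4A2, a helicase of the cap-binding complex whose introns hold snoRNAs, with 159, 127 and 125 CPM in the control and 101, 85.6 and 81.5 CPM in TFAM-OE. Its log2 fold change was -0.62 ± 0.13 (SE), with an edgeR adjusted p of 0.0185. Of 17 regulators of TOP mRNAs, 1 rose (5.88%) and 0 fell, while 3 were lower and 2 higher without TFAM-OE replicate 3. RPS6KB2, the second S6 kinase, had 29.6, 41.3 and 46.3 CPM in the control and 79.7, 72.9 and 60.7 CPM in TFAM-OE. Its log2 fold change was 0.86 ± 0.17 (SE), with an edgeR adjusted p of 0.0147. The groups of EIF4A2 and of RPS6KB2 did not overlap, and each call was lost without control replicate 1, without control replicate 2 or without TFAM-OE replicate 2 (edgeR adjusted p 0.0698 to 0.107 and 0.050 to 0.0695). That of EIF4A2 was also lost with the summed ribosomal protein counts as library size.

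Of 87 ribosome biogenesis genes, 5 fell (5.75%) and 0 rose, against 4.81% and 3.48% of all genes tested. TAF1D, a subunit of the RNA polymerase I factor SL1, had a log2 fold change of -0.67 ± 0.18 (SE), and RIOK3, a kinase of small-subunit maturation, -0.57 ± 0.14 (SE). DDX10 and DDX52, helicases of the nucleolus, had -0.39 ± 0.10 (SE) and -0.38 ± 0.09 (SE). Their edgeR adjusted p ran from 0.0360 to 0.0498, and all 5 calls of the list were lost without control replicate 1, without control replicate 2 or without TFAM-OE replicate 2, while 2 of its genes fell without control replicate 3. The fits without control replicate 1, control replicate 2 and TFAM-OE replicate 2 called 252, 240 and 262 of all genes lower, from 796. Without control replicate 3, 748 of all genes were lower. Without TFAM-OE replicate 3, 14 of its genes (16.1%) fell and 5 (5.75%) rose, against 10.5% and 8.43% of all genes in that fit.

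Of 20 genes of ribosome quality control and recycling, 0 fell and 2 rose (10%), against 3.48% of all genes that rose. The count that rose was 0 without control replicate 1, without control replicate 2 or without TFAM-OE replicate 2, 1 without control replicate 3 and 4 without TFAM-OE replicate 3, where 1 fell. Of all genes, 90 rose without control replicate 1, 66 without control replicate 2 and 89 without TFAM-OE replicate 2, from 576. Without control replicate 3, 482 rose, and without TFAM-OE replicate 3, 1428 rose and 1786 fell. TCF25, of the complex that marks stalled chains for degradation, had means of 49.8 ± 1.44 CPM for control and 69.7 ± 4.14 CPM for TFAM-OE (SD, n = 3), a log2 fold change of 0.48 ± 0.09 (SE) and an edgeR adjusted p of 0.0152. ANKZF1, which releases such chains, had means of 14.4 ± 1.22 CPM for control and 19.8 ± 0.529 CPM for TFAM-OE (SD, n = 3), a log2 fold change of 0.46 ± 0.12 (SE) and an edgeR adjusted p of 0.0407. Without control replicate 1, control replicate 2 or TFAM-OE replicate 2 in turn, the edgeR adjusted p was 0.0740 to 0.104 for TCF25 and 0.101 to 0.168 for ANKZF1, whose call was also lost without control replicate 3 (edgeR adjusted p = 0.0976). With the summed ribosomal protein counts as library size both calls were lost.

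Non-coding snoRNA host genes, spliced RNAs that carry snoRNAs in their introns as many ribosomal protein genes do, and several of which are known as TOP RNAs, were mostly lower in the libraries labelled TFAM-OE. Of the 14 tested, 9 fell and 0 rose, and 2 passed a fold of 2, with a median log2 fold change of -0.52. The same rules called 4.81% of all genes lower and 2.51% past a fold of 2. The count that fell was 2 without control replicate 1, 2 without control replicate 2, 5 without control replicate 3, 3 without TFAM-OE replicate 2 and 9 without TFAM-OE replicate 3. Over all genes, the same fits in that order called 252, 240, 748, 262 and 1786 lower, of 16838 to 16941 tested. ZFAS1 (chr20:49278178-49299600) had 393, 373 and 401 CPM in the control and 237, 192 and 122 CPM in TFAM-OE. The groups did not overlap, and the log2 fold change was -1.08 ± 0.20 (SE), with an edgeR adjusted p of 0.0117. The call was lost without control replicate 1 or without control replicate 2 (edgeR adjusted p = 0.0672 and 0.0593). C6orf48, now called SNHG32 (chr6:31834608-31839766), had 102, 86.9 and 81.1 CPM in the control and 49.0, 45.5 and 34.1 CPM in TFAM-OE. Its log2 fold change was -1.07 ± 0.15 (SE), with an edgeR adjusted p of 0.00304, and of at most 0.0240 over the alternatives. LRRC75A-AS1, or SNHG29, had means of 824 ± 30.2 CPM for control and 585 ± 104 CPM for TFAM-OE (SD, n = 3), and SNHG6 had means of 118 ± 5.88 CPM for control and 86.6 ± 11.9 CPM for TFAM-OE (SD, n = 3). Their log2 fold changes were -0.49 ± 0.13 (SE) and -0.44 ± 0.12 (SE), with edgeR adjusted p of 0.0467 and 0.0449. Both calls were lost without any 1 of the 3 control libraries or without TFAM-OE replicate 2 (edgeR adjusted p 0.110 to 0.169 and 0.116 to 0.156). TFAM-OE replicate 3 was the lowest library for each of these 4 genes, as it was for most members. A pyrimidine start by the same criterion was present for 5 of the 12 hosts with an entry in the table. The windows of ZFAS1 and SNHG32, which have it, are shown for comparison with those of the members.
ZFAS1 (chr20:49278632-49278661, plus strand): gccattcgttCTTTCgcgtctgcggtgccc
SNHG32 (chr6:31834906-31834935, plus strand): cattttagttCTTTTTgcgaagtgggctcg

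**Figure D5:**
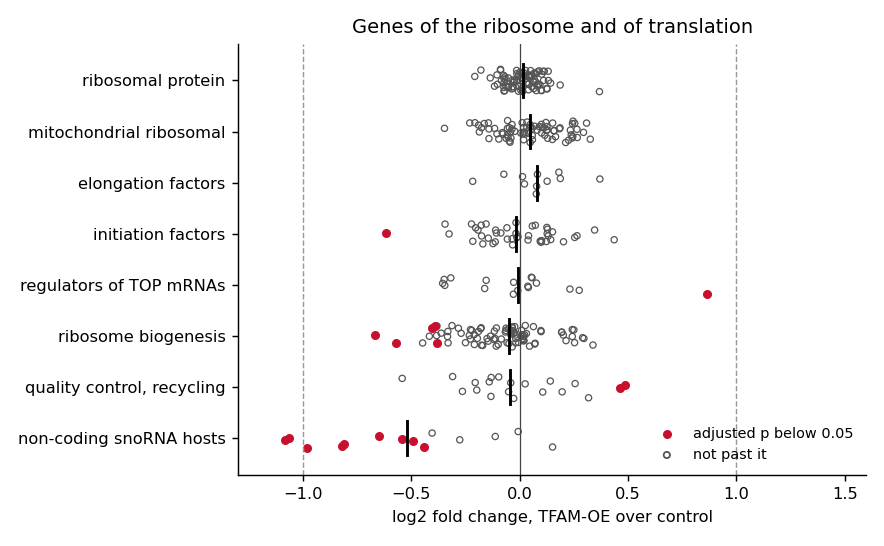
Log2 fold change of each tested gene (horizontal axis, TFAM-OE over control, edgeR) in 8 groups of genes of the ribosome and of translation, with filled red points for an adjusted p below 0.05, open points for the rest, and black bars at the medians. Cytosolic and mitochondrial ribosomal protein genes cluster around 0 with 0 calls, while 9 of 14 non-coding snoRNA hosts lie below 0 as filled points.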

How the data were processed

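RNA of 3 control and 3 TFAM-OE cultures of A549 cells was sequenced. The authors aligned trimmed reads to GRCh38 with TopHat2, counted uniquely mapped reads on each gene and deposited raw counts per library, without pooling. The deposited FPKM values were made by the authors from the same reads. Which program and annotation they counted with, and whether strand was used, is not given in the sources used here. The members, lists and tests were chosen with earlier results of these data known. Counts of genes kept by filterByExpr were tested over all 6 libraries by edgeR (4.0.16, run in R 4.3.3) with its quasi-likelihood F test, TMM scaling, group alone, two-sided, with Benjamini-Hochberg adjustment over all genes tested. An exact permutation test of 3 against 3 cannot go below p = 0.1 and was not used. The script was tested on simulated data. CPM are TMM-scaled. Log2 fold changes are TFAM-OE over control, and 95% intervals come from the edgeR fit.

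Named members are those past an adjusted p of 0.05 and a fold of 2 (0 genes), the 3 highest and 3 lowest by FPKM, RPLP0 to RPLP2, RPSA, RPL5, RPL11, RPS6, RPS3, RPL13A, RPL10, readthrough genes, and paralogues with the partners RPL3, RPL7, RPL10, RPL22, RPL26, RPL36A, RPL39, RPS4X and RPS27. From each list, the 2 highest and 2 lowest calls are named, apart from results not reported here. Coordinates and transcript lengths are from GENCODE version 44, which held 97.2% of the gene IDs, and start sites are from RefSeq (GRCh38.p14). Replicate numbers were not taken to pair cultures, since no source says so and same-numbered libraries did not deviate together (correlations of -0.22, 0.0077 and -0.27). Alternatives were edgeR's exact test, DESeq2 (1.42.0), limma-voom and limma-trend on log2(FPKM + 0.1) or log2(FPKM + 1) in limma (3.58.1), other scalings and filters, offsets for length and GC content, replicate blocks and each library left out. Reads carry no molecular identifiers, so depth covers counting error only, and the 3 cultures of each group limit the precision.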

Additional observations from a re-analysis of the deposited data

How the results depend on the processing

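Under 20 alternatives the count of lower ribosomal protein genes stayed at 0, and the count past a fold of 2 stayed at 0. The count of higher ones was 1, RPL39L, with offsets for length and GC content, and ran from 0 to 1 with single libraries left out. Their median log2 fold change ran from -0.08 to 0.16 with single libraries left out, and the difference in their share of counts from -0.553 to 0.593 percentage points. The difference in the large to small ratio ran from -0.0072 to 0.0041. Calls in the lists moved more. From 15 lower and 3 higher, they went to 2 to 29 lower and 0 to 26 higher with single libraries left out. Calls over all genes went from 796 lower and 576 higher to 240 to 1786 lower and 66 to 1428 higher. Higher calls in the lists were 5 on all genes with a read, 5 by the exact test and 24 with offsets. Over all genes these fits called 1034 of 29845, 980 of 16555 and 1882 of 16555 higher. With the summed ribosomal protein counts as library size, added after the data were seen, 5 list genes were lower and 1 higher. That fit called 183 of all genes lower and 68 higher. The cause was not tested. The precision is limited by 3 libraries per group, among which TFAM-OE replicates 1 and 3 stand farthest apart.

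With the replicate number as a block, 0 ribosomal protein genes were lower and 0 higher, and the lists held 4 lower and 0 higher calls, or 9 lower and 2 higher with the block and the offsets together. Over all genes the block left 285 lower and 74 higher, from 796 and 576, and the block with the offsets 698 lower and 728 higher. Same-numbered libraries did not correlate best with each other, so the block is no more than a hint from a shared number.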
